A study of Mus musculus with 10 samples.

Results

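The genes described here are 10 whose transcripts are commonly used to recognise the resting fibroblasts of the heart: Pdgfra, Tcf21, Dpt, Ddr2, Pi16, Gsn, Scara5, Clec3b, Islr and Cdh11. They were taken by symbol from a table of 20692 genes, each symbol matched 1 row, and all 10 had enough reads to be tested, as did 12001 genes in all. The hearts came from 9-week-old mice of the inbred strain FVB/NJ, each labelled as female, and polyadenylated RNA of the ventricular apex was sequenced. There were 5 libraries from sham-operated mice and 5 from mice taken 1 week after transverse aortic constriction (TAC). In this operation a tied band on the aortic arch makes the left ventricle pump against a higher pressure. The labels of the TAC libraries name the operation, whereas the sham group is named by the series' design text. The comparison asks how the transcripts of the loaded heart differ from those of the sham heart.

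Fibroblasts make and maintain the collagen network between cardiomyocytes. In the uninjured heart they rest, and most descend from the epicardium, a lineage that needs the transcription factor Tcf21. Under pressure load they are known to divide and to take on an activated state, marked by Postn and by collagen genes, in which some resting genes are thought to be turned down. The 10 genes encode unlike proteins: a transcription factor (Tcf21), receptor kinases (Pdgfra for platelet-derived growth factors, Ddr2 for collagen), other surface proteins (Islr, Pi16, Cdh11, Scara5), secreted proteins (Dpt, Clec3b) and an actin-severing protein with a cytoplasmic and a secreted form (Gsn).

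Each library held between 7410967 and 10126574 counts. Levels are given as CPM, the usual depth-normalised read count, with library totals scaled by TMM (trimmed mean of M values), with mean ± SD over 5 libraries, and fold changes are TAC over sham from edgeR's quasi-likelihood test with its standard error (SE) and Benjamini-Hochberg adjustment over all 12001 genes. A gene is called at an adjusted p under 0.05. The library labelled TAC replicate 1 went against its label of female sex, with 14 counts of Xist, against 1042 to 1561 elsewhere, and 155 of the Y-linked gene Ddx3y, against none elsewhere. Calls of named genes that changed without it are given beside the result. The submitters name different aligner versions for the sham and the TAC libraries, so that this difference and the operation cannot be told apart. In whole tissue, fewer cells of a type and less RNA per cell cannot be told apart, and cardiomyocyte transcripts dominate, with Myh6 at 42830 ± 4382 CPM in sham (SD, n = 5).

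The 10 genes did not move as a block. Of the 10, 4 rose (Pdgfra, Ddr2, Pi16 and Islr), 2 fell (Gsn and Scara5) and 4 were not called (Tcf21, Dpt, Clec3b and Cdh11). Over all tested genes 35.8% were called, 18.8% higher and 17.0% lower. The median log2 fold change of the 10 was 0.23, beside 0.0027 over all tested genes. Scaled by library totals alone, the median over all genes moved to 0.11 and 73.8% of all calls were higher in TAC, against 52.5%. Groups did not overlap in 3 of the 10, with all TAC libraries above all sham libraries for Pi16 and Ddr2 and below them for Scara5, where 23.7% of all genes had groups that did not overlap. No change reached 2-fold: the largest rise was that of Islr, 1.59-fold, and the largest fall that of Scara5, to 0.715 of its sham level. Leaving out TAC replicate 1 left 3 that rose and 2 that fell, and the gene no longer called was Pdgfra.

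**Figure D1:**
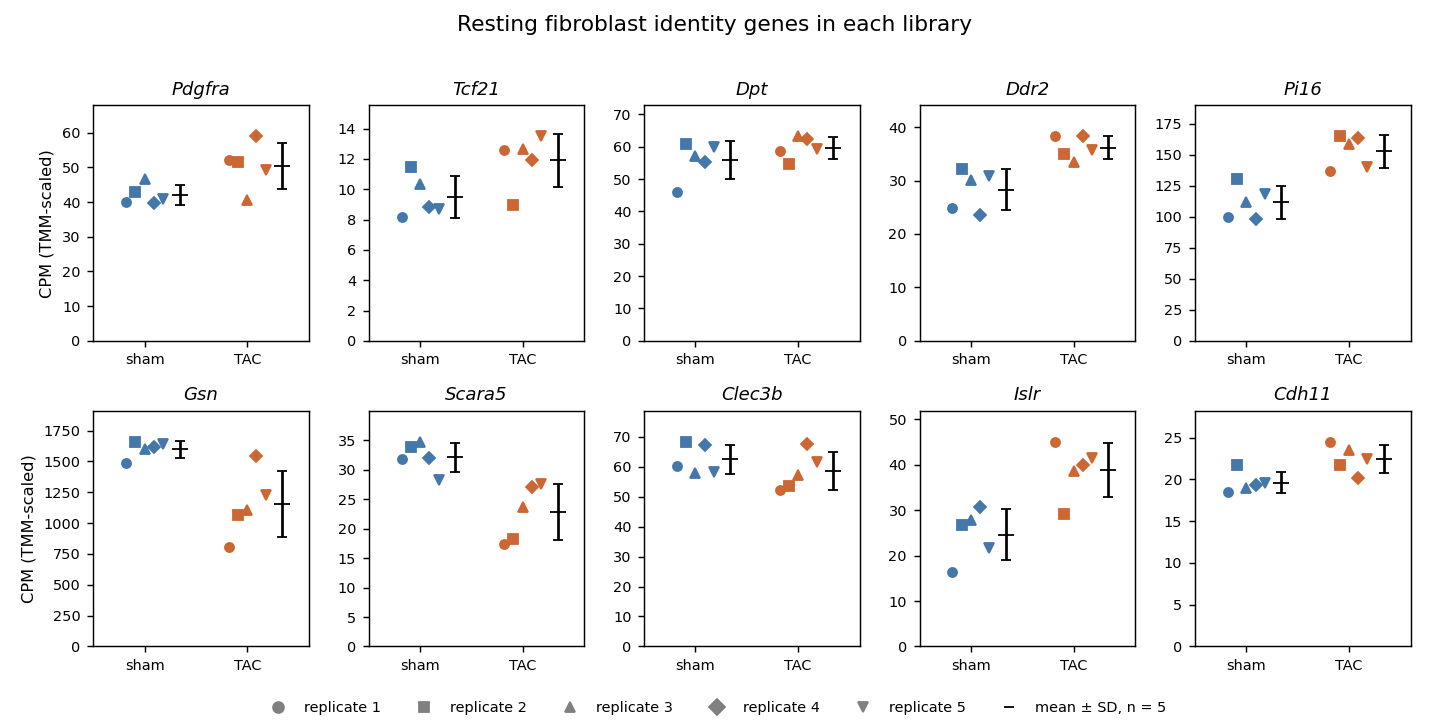
TMM-scaled CPM of each gene in the 5 sham and 5 TAC libraries, 1 symbol per replicate number, with the mean ± SD of each group in black; every axis starts at 0. All TAC libraries lie above sham for Pi16 and Ddr2 and below sham for Scara5, while the TAC libraries of Gsn spread from 809.7 to 1542 CPM.

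The stretches before 5 transcription starts are shown: the 4 that hold the E-box spelling described below, and that of Pi16, the gene with the smallest adjusted p, which lacks it. RefSeq promoter sequences (GRCm38.p6) matched 7 of the 10 genes, with 9 starts in all, of which 3 belong to Gsn; Scara5, Clec3b and Cdh11 had no entry. Each run below is the 250 bases before a start, on the gene's own strand, 5′ to 3′, and capitals mark CAGCTG, an E-box spelling that basic helix-loop-helix factors such as Tcf21 are known to bind. The stretches are those of Islr (chr9:58158555-58158804, minus strand), Pi16 (chr17:29318632-29318881, plus strand), Dpt (chr1:164796413-164796662, plus strand), and the first and second start of Gsn (chr2:35256109-35256358 and chr2:35266494-35266743, plus strand).
Islr: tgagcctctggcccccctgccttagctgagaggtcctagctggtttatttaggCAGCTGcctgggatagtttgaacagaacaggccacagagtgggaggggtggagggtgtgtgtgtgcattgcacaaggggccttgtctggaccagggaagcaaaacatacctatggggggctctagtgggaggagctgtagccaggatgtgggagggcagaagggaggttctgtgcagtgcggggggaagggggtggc
Pi16: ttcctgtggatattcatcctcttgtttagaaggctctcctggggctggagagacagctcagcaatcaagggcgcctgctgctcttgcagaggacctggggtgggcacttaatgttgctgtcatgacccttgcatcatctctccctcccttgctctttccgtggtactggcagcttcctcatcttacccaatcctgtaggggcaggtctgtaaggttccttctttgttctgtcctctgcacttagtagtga
Dpt: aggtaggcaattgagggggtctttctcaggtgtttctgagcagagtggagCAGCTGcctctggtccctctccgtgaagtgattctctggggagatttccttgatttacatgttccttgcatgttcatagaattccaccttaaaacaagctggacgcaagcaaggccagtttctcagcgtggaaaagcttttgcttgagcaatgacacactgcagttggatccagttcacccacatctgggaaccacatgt
Gsn, first start: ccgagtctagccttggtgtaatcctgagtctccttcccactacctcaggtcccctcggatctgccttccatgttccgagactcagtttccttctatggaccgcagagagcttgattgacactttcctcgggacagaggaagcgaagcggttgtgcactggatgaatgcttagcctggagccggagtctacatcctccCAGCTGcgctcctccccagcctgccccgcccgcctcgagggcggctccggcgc
Gsn, second start: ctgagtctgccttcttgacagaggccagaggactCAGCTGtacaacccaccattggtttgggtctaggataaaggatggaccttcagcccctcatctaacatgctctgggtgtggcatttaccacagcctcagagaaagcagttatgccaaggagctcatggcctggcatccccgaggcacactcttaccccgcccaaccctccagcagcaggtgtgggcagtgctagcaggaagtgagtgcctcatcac

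CAGCTG occurred in 4 of the 9 starts, those of Dpt, Islr and 2 of the 3 of Gsn, and in 13.0% of all 32851 promoter stretches of the same length. Its first base lay at -200 in Dpt, -197 in Islr, and -53 and -216 in the first and second start of Gsn, counted from the transcription start. These matches fall in a gene that rose, a gene that fell and a gene that was not called. The wider E-box CANNTG, of which CAGCTG is 1 spelling, occurred in 6 of 9 starts and in 66.2% of all. TATAAA occurred in 1 of 9, that of Ddr2, and in 12.4% of all, whereas TGANTCA, the AP-1 motif, and GGAATG, a TEAD motif, occurred in none of the 9 and in 6.75% and 12.6% of all. Both strands were searched, and a match describes the letters, not binding.

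Tcf21 (ENSMUSG00000045680, chromosome 10), the basic helix-loop-helix factor of the fibroblast lineage, was the weakest in reads, with 66 to 123 counts per library. It stood at 8.18, 11.5, 10.3, 8.81 and 8.70 CPM in sham replicates 1 to 5, and at 12.6, 8.97, 12.7, 11.9 and 13.5 CPM in TAC replicates 1 to 5. All TAC libraries but replicate 2 lay above the highest sham library. The mean went from 9.49 ± 1.36 to 11.9 ± 1.75 CPM and was not called (edgeR log2 fold change 0.34 ± 0.13 SE, adjusted p = 0.0563), with an unadjusted 95% interval of 0.060 to 0.62. Among its dimer partners, the E proteins, all 3 rose: Tcf3, Tcf4 and Tcf12 had log2 fold changes of 0.39, 0.41 and 0.29. Of the 9 partners and relatives tested, 5 rose and 2 fell. The other 2 that rose belong to the epicardial programme: Wt1, a zinc finger factor of the epicardium, from 12.5 ± 1.51 to 21.9 ± 6.99 CPM, and Aldh1a2, an enzyme of retinoic acid synthesis, from 4.67 ± 1.05 to 16.5 ± 13.5 CPM. The log2 fold change of Aldh1a2 was 1.81, and 1.17 without the library labelled TAC replicate 1. Hand2, a factor of heart and fibroblast lineages, fell by 0.51 on the log2 scale and Tcf23, a related helix-loop-helix gene, by 1.19; the Tcf23 call was lost without the library labelled TAC replicate 1. Tbx18, another epicardial factor, was not called, at 5.85 ± 1.73 CPM in sham against 7.18 ± 1.51 CPM after TAC. Of 5 tested markers of epicardial mesothelium, Wt1 among them, the other 4 were not called, and the median log2 fold change of the 5 was -0.11.

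Pdgfra (ENSMUSG00000029231, chromosome 5) encodes the alpha receptor for platelet-derived growth factors and is the most used surface marker of cardiac fibroblasts. It was at 40.0, 42.8, 46.8, 39.8 and 41.0 CPM in the sham libraries and at 52.0, 51.6, 40.6, 59.0 and 49.2 CPM in the TAC libraries. TAC replicate 3 lay inside the sham range and the other 4 above it. The gene rose from 42.1 ± 2.87 to 50.5 ± 6.61 CPM (edgeR log2 fold change 0.27 ± 0.088, adjusted p = 0.0319). This was the least secure of the 6 calls: leaving out a library ended it in 6 of 10 cases (sham replicate 1, 4 or 5, TAC replicate 1, 2 or 4, adjusted p between 0.0558 and 0.0788 by edgeR), and so did a term for replicate number as a block (adjusted p = 0.0680 by edgeR). Of the 5 tested genes of the same system, 2 rose, none fell and 3 were not called. Pdgfrb, the beta receptor of pericytes and smooth muscle, rose from 194 ± 12.2 to 231 ± 6.04 CPM, and Pdgfrl, a receptor-like gene, from 1.66 ± 0.314 to 5.70 ± 2.13 CPM. None of the 3 tested ligand genes was called: Pdgfa stood at 27.5 ± 2.39 and 28.9 ± 2.20 CPM, Pdgfb at 73.2 ± 11.2 and 86.8 ± 5.46 CPM in sham and TAC, and Pdgfd had a log2 fold change of 0.0081 ± 0.11. The log2 fold change of Pdgfb, 0.25 ± 0.092, was close in size to that of Pdgfrb, 0.26 ± 0.054.

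Ddr2 (ENSMUSG00000026674, chromosome 1) encodes a receptor tyrosine kinase that binds fibrillar collagen. The sham libraries gave 24.9, 32.2, 30.1, 23.6 and 30.8 CPM and the TAC libraries 38.3, 34.9, 33.5, 38.3 and 35.8 CPM. The groups did not overlap, and the TAC libraries were the more alike (coefficient of variation 5.83%, against 13.5% in sham). Ddr2 rose from 28.3 ± 3.82 to 36.2 ± 2.11 CPM (edgeR log2 fold change 0.36 ± 0.088, adjusted p = 0.00725). Its paralogue Ddr1, a collagen receptor better known from epithelia, rose from 79.9 ± 3.48 to 90.2 ± 6.44 CPM, a call lost without the library labelled TAC replicate 1. The genes of 2 main collagen chains that Ddr2 binds, Col1a1 and Col3a1, rose by 2.14 ± 0.33 and 2.12 ± 0.29 on the log2 scale. Without the library labelled TAC replicate 1 they rose by 1.61 and 1.71.

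Islr (ENSMUSG00000037206, chromosome 9), also called meflin, encodes a membrane-anchored protein with leucine-rich repeats and an immunoglobulin domain, found on stromal cells. It was at 16.4, 26.7, 27.9, 30.7 and 21.6 CPM in sham and at 45.1, 29.1, 38.7, 40.0 and 41.5 CPM in TAC. TAC replicate 2 lay below the highest sham library and the other 4 lay above all sham libraries. Islr rose 1.59-fold, from 24.6 ± 5.67 to 38.9 ± 5.97 CPM (edgeR log2 fold change 0.66 ± 0.15, adjusted p = 0.00460), and it was also the most variable of the 10 in sham (coefficient of variation 23.0%). In GENCODE M21, 6.74% of its exon length is shared with an annotated transcript of its neighbour Islr2 on the same strand. Islr2 was not called, at 1.10 ± 0.452 CPM in sham against 1.396 ± 0.435 CPM after TAC.

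Pi16 (ENSMUSG00000024011, chromosome 17), peptidase inhibitor 16, is a surface protein of the CAP family that marks fibroblasts of the adventitia in many organs. Its sham libraries gave 100.1, 131, 112, 98.0 and 118 CPM and its TAC libraries 137, 165, 159, 163 and 140.1 CPM. Every TAC library was above every sham library. The rise, from 112 ± 13.4 to 153 ± 13.3 CPM, had the smallest adjusted p of the 10 genes (edgeR log2 fold change 0.45 ± 0.085, adjusted p = 0.00138). Of the other 13 adventitial-type fibroblast genes tested, 6 rose, none fell and 7 were not called, with a median log2 fold change of 0.36. Mfap5, a microfibril protein, rose from 24.3 ± 2.69 to 59.6 ± 13.6 CPM, Fbln2, a fibulin, from 196 ± 20.3 to 409 ± 103 CPM and Cd34, a sialomucin that endothelium also carries, from 111 ± 13.2 to 184 ± 21.0 CPM. Cd248, Anxa3 and Sema3c were the other 3 that rose, with log2 fold changes of 0.89, 0.54 and 0.49. Dpp4 and Ly6a, which mark the same cells in mouse tissues, were not called, at 2.24 ± 0.810 and 2.43 ± 0.994 CPM for Dpp4 and at 67.2 ± 9.36 and 74.3 ± 10.5 CPM for Ly6a. Among CAP family relatives, Crispld2 and Glipr2 rose, by 0.50 and 1.00 on the log2 scale, and Pi15 was not called (0.53 ± 0.20).

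Cdh11 (ENSMUSG00000031673, chromosome 8) encodes cadherin-11, which joins fibroblasts to each other and to macrophages. It was at 18.6, 21.7, 19.0, 19.3 and 19.6 CPM in sham and at 24.5, 21.7, 23.5, 20.1 and 22.5 CPM in TAC. TAC replicate 4 lay below sham replicate 2 and the other 4 lay above all sham libraries. The change, from 19.6 ± 1.22 to 22.5 ± 1.67 CPM, was not called (edgeR log2 fold change 0.20 ± 0.073, adjusted p = 0.0510), with an unadjusted 95% interval of 0.039 to 0.35. The cadherins of other heart cells differed in direction: Cdh5, the endothelial cadherin, rose from 282 ± 20.8 to 411 ± 39.7 CPM, Cdh2, the cadherin of cardiomyocyte junctions, fell from 421 ± 17.9 to 369 ± 13.4 CPM, and Cdh13 was at 235 ± 18.1 and 216 ± 24.5 CPM and not called. Of 8 cadherin and catenin genes tested, 2 rose and 2 fell; scaled by library totals alone, 4 rose and none fell.

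Scara5 (ENSMUSG00000022032, chromosome 14) encodes a scavenger receptor that takes up ferritin. Its sham libraries gave 31.8, 33.8, 34.7, 31.9 and 28.3 CPM and its TAC libraries 17.5, 18.2, 23.7, 27.1 and 27.6 CPM. Every TAC library was below every sham library, with TAC replicates 4 and 5 close to sham replicate 5 and TAC replicates 1 and 2 farthest from it. Scara5 fell from 32.1 ± 2.48 to 22.8 ± 4.79 CPM (edgeR log2 fold change -0.48 ± 0.12, adjusted p = 0.00798), and by 0.40 on the log2 scale without the library labelled TAC replicate 1 (adjusted p = 0.0135 by edgeR). Of 9 tested scavenger receptor and iron genes, 3 rose, 2 fell and 4 were not called. The ferritin chains went apart: Fth1, the heavy chain, fell from 1789.6 ± 120.2 to 1459.7 ± 20.6 CPM and Ftl1, the light chain, rose from 457 ± 60.1 to 636 ± 100.2 CPM. Colec12 and Scarb1, other scavenger receptors, rose by 0.62 and 0.41 on the log2 scale, Cd36, the fatty acid translocase of cardiomyocytes and endothelium, fell by 0.46, and Scara3 was not called (0.53 ± 0.25).

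Dpt (ENSMUSG00000026574, chromosome 1) encodes dermatopontin, a small matrix protein that binds decorin and collagen. It was at 46.0, 61.0, 57.2, 55.4 and 60.0 CPM in sham and at 58.8, 54.6, 63.3, 62.5 and 59.2 CPM in TAC. Sham replicate 1 was the lowest, TAC replicates 3 and 4 lay above all sham libraries, and the other 3 lay inside the sham range. The means, 55.9 ± 5.96 and 59.7 ± 3.45 CPM, differed by 0.096 ± 0.077 on the log2 scale (edgeR, adjusted p = 0.357), with an unadjusted 95% interval of -0.069 to 0.26. Its binding partner Dcn, decorin, rose from 224 ± 14.8 to 279 ± 20.7 CPM. The 3 genes of transforming growth factor beta, which dermatopontin can bind, rose by 0.59 (Tgfb1), 1.52 (Tgfb2) and 0.57 (Tgfb3) on the log2 scale. Without the library labelled TAC replicate 1 these values were 0.58, 1.21 and 0.45.

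Clec3b (ENSMUSG00000025784, chromosome 9) encodes tetranectin, a secreted lectin that binds a kringle of plasminogen. The sham libraries gave 60.2, 68.3, 58.0, 67.3 and 58.4 CPM and the TAC libraries 52.4, 53.5, 57.4, 67.6 and 61.6 CPM. Of the TAC libraries, 3 lay below the lowest sham library and 2 inside the sham range. The mean was 62.4 ± 4.97 CPM in sham and 58.5 ± 6.26 CPM in TAC (edgeR log2 fold change -0.092 ± 0.080, adjusted p = 0.400, unadjusted 95% interval -0.26 to 0.080), and the sign turned when libraries were scaled by their totals alone (0.012). Of 7 tested genes of the plasminogen system, 5 rose and none fell. Anxa2 and S100a10, which together form a cell surface receptor for plasminogen, had log2 fold changes of 0.86 and 0.58, Plat, the tissue activator, 0.63, Plaur, the receptor of the urokinase activator, 0.69 and Serpine2, a protease inhibitor, 0.92. The value of Serpine2 was 0.57 without the library labelled TAC replicate 1. Plau, the urokinase activator, was not called (0.67 ± 0.26).

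Gsn (ENSMUSG00000026879, chromosome 2) encodes gelsolin, which severs and caps actin filaments in many cell types, cardiomyocytes among them. It was at 1484, 1659, 1597, 1616 and 1638 CPM in sham, a narrow range (coefficient of variation 4.27%). In TAC it was at 809.7, 1069, 1109, 1542 and 1231 CPM, a spread of 23.1%, with TAC replicate 4 inside the sham range and the other 4 below it. Gsn fell from 1599 ± 68.3 to 1152 ± 266 CPM (edgeR log2 fold change -0.47 ± 0.13, adjusted p = 0.0113), and without the library labelled TAC replicate 1, the lowest, by 0.37 (adjusted p = 0.00919 by edgeR). The summed level of 8 cardiomyocyte markers moved the same way: it was 94842 to 113370 CPM in sham and 68936 to 92596 CPM in TAC, and 6 of the 8 fell. TAC replicate 1 was the lowest and TAC replicate 4 the highest TAC library in both the sum and Gsn, but sham replicate 2 had the lowest sham sum and the highest Gsn, and TAC replicate 2 combined a sum of 90571 CPM, next to the highest in TAC, with a Gsn level next to the lowest. The part of these markers in the Gsn result was not tested. Of 8 other actin-severing or actin-binding genes tested, 4 rose and none fell. Capg, the capping relative of gelsolin in macrophages and other cells, rose from 17.4 ± 1.99 to 32.9 ± 6.44 CPM, Tmsb4x and Cfl1, a monomer-binding protein and cofilin, rose by 0.65 and 0.57 on the log2 scale and Dstn by 0.20, while Svil, a muscle-rich member of the gelsolin family, was at 648 ± 41.9 and 601 ± 28.6 CPM and not called.

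**Figure D2:**
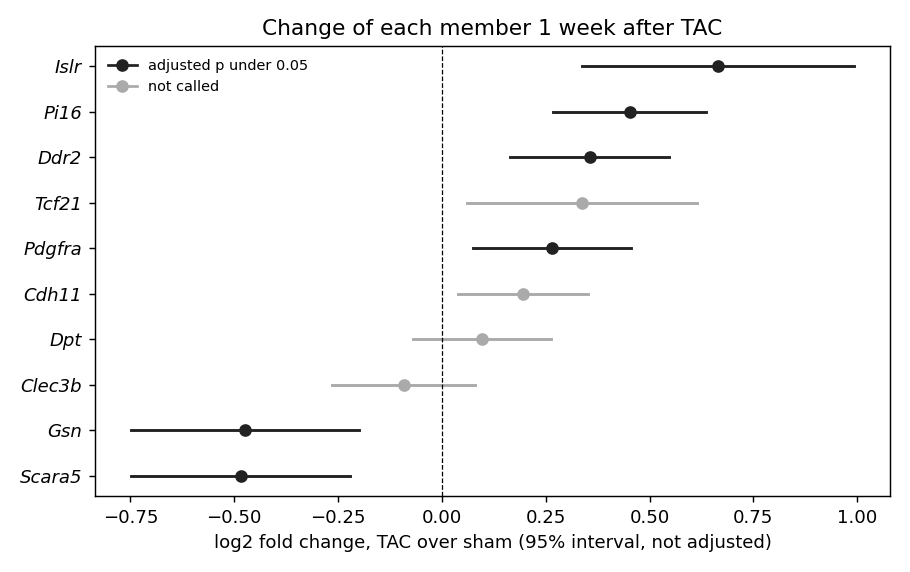
Log2 fold change of each gene, TAC over sham, with its unadjusted 95% interval from edgeR; black marks genes with an adjusted p under 0.05 over all tested genes and grey those not called. The genes run from Scara5 at -0.48 to Islr at 0.66, and the intervals of Tcf21 and Cdh11 lie above 0 although neither gene is called.

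Divided by exon length, the levels of the 10 genes covered a wide range that TAC left largely in order. In sham, Gsn stood at 506 ± 21.6 CPM per kilobase, Clec3b at 62.9 ± 5.01, Dpt at 32.4 ± 3.46, Pi16 at 17.6 ± 2.11 and Islr at 9.18 ± 2.11. The ranges of these 5 over the libraries did not touch. Scara5 came next at 5.27 ± 0.407 CPM per kilobase, followed by Pdgfra at 4.20 ± 0.286, Tcf21 at 4.04 ± 0.580, Ddr2 at 3.06 ± 0.412 and Cdh11 at 2.20 ± 0.137; the ranges of Scara5 and Pdgfra overlapped, as did those of Pdgfra and Tcf21. In TAC the first 5 and the last kept their places, with 365 ± 84.4 CPM per kilobase for Gsn and 2.52 ± 0.187 for Cdh11. Scara5 went from place 6 to place 9 by its mean, at 3.75 ± 0.787 CPM per kilobase. There its range overlapped that of Ddr2, at 3.90 ± 0.227, and also those of Pdgfra and Tcf21. Gsn made up 79.5% to 81.2% of the summed CPM of the 10 genes in sham and 64.9% to 75.9% in TAC. The other 9 together were at 346 to 429 CPM in sham and at 438 to 490.0 CPM in TAC, so that their sum did not overlap between groups. Pi16 was the largest part of that sum, at 112 ± 13.4 CPM in sham and 153 ± 13.3 CPM in TAC. Its groups did not overlap by themselves, and Scara5 within the sum fell. The sum therefore does not show a joint rise of the 9.

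**Figure D3:**
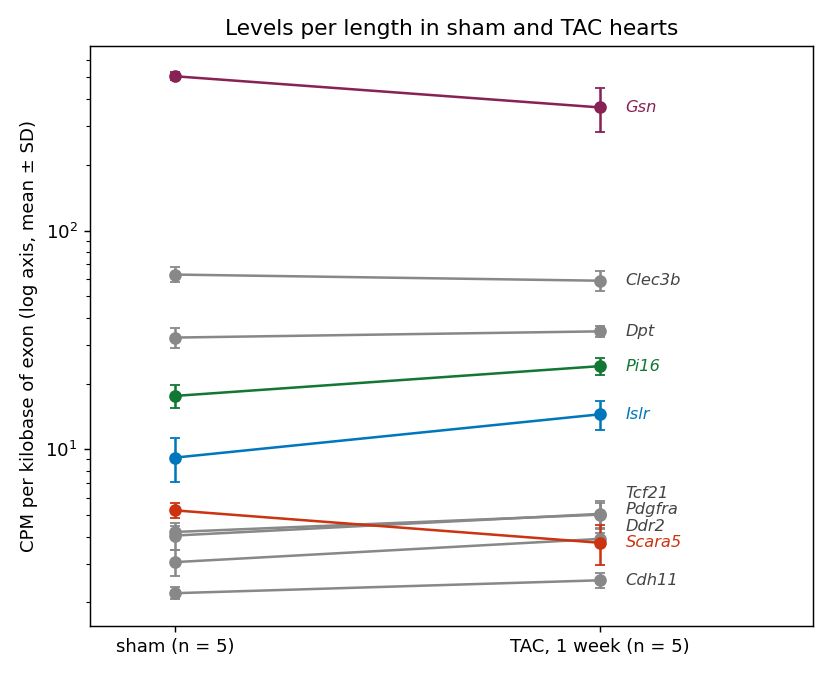
Mean CPM per kilobase of exon ± SD (n = 5) of each gene in sham and TAC hearts, on a log axis; coloured lines mark Gsn, Pi16, Islr and Scara5. Scara5 crosses the lines of Pdgfra, Tcf21 and Ddr2 on its way from 5.27 to 3.75, while the 5 genes with the highest levels keep their order.

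The scaling of a library cancels in a ratio of its genes, apart from the small constant added, and each gene was also set against Pdgfra as a log2 ratio of CPM plus 2. The ratios of Gsn and Scara5 to Pdgfra fell. For Gsn the mean log2 ratio was 5.18 ± 0.0968 in sham and 4.44 ± 0.331 in TAC, a difference of -0.75, and for Scara5 it was -0.37 ± 0.0857 and -1.09 ± 0.342, a difference of -0.72 (SD, n = 5, exact two-sided permutation test, p = 0.00794 for each, the smallest this design can give, adjusted p = 0.0357 over 9 ratios). In both genes all TAC ratios lay below all sham ratios. Both calls held without any 1 TAC library. Without sham replicate 1, 2, 4 or 5 the adjusted p was 0.0714 by exact permutation, with differences of -0.76 to -0.70. Without sham replicate 3 it was 0.0476 by the same test, where Clec3b was also called. With so few divisions the adjusted p moves in steps and depends on the other ratios, so these outcomes do not single out a sham library. For Clec3b the difference over all libraries was -0.34 (exact permutation p = 0.0317, adjusted p = 0.0952). Relative to Pdgfra, Islr differed by 0.39 (exact permutation p = 0.0714, adjusted p = 0.161) and Pi16 by 0.20 (p = 0.127 by the same exact test, adjusted p = 0.229). For Ddr2, Tcf21, Cdh11 and Dpt the differences were 0.095, 0.030, -0.067 and -0.15, with exact permutation p between 0.246 and 0.833. The rises of Pi16, Islr and Ddr2 were thus not shown to be larger than that of Pdgfra.

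**Figure D4:**
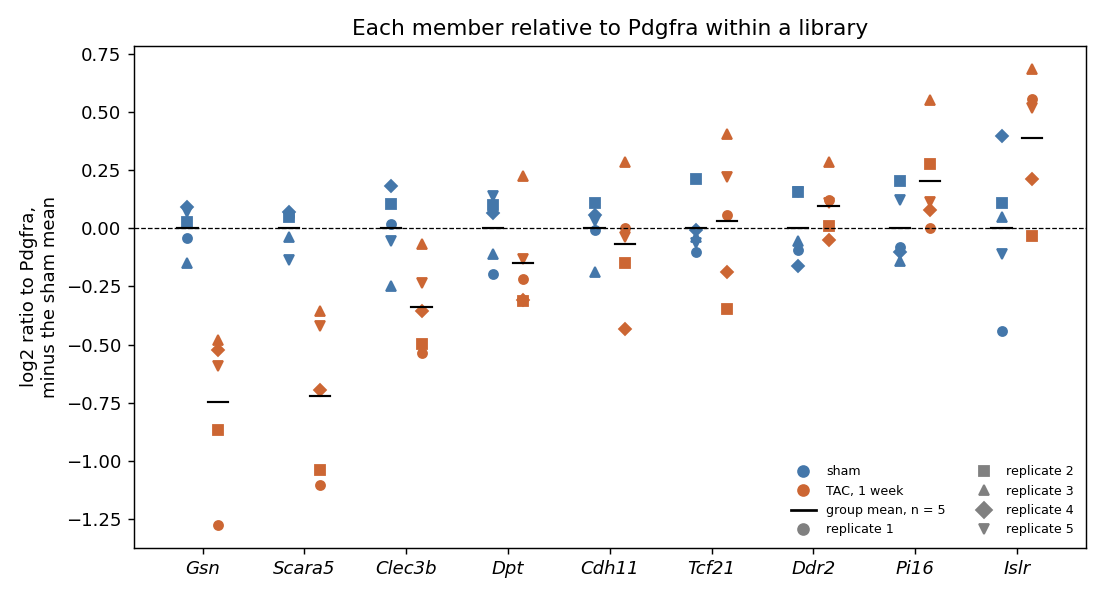
Log2 ratio of each gene to Pdgfra in each library, minus the sham mean, with symbols for replicate numbers and bars for group means. The TAC ratios of Gsn and Scara5 lie below all sham ratios, with group means at -0.75 and -0.72, and those of the other 7 genes overlap with sham.

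Other genes used as fibroblast markers gave the setting for these values, though the cells they came from were not measured. Of 22 other resting or general fibroblast genes tested, 12 rose, 1 fell and 9 were not called, with a median log2 fold change of 0.32. Col15a1 and Lum, a basement membrane zone collagen and a small proteoglycan, rose by 1.35 and 0.96 on the log2 scale, and Pcolce, an enhancer of collagen processing, and Mgp, an inhibitor of calcification, by 1.12 and 0.80. Igfbp4, Prelp and Cygb had log2 fold changes of 0.62, 0.40 and 0.35. The gene that fell was Htra3, a secreted serine protease, from 187 ± 14.2 to 143 ± 24.7 CPM (edgeR log2 fold change -0.39 ± 0.11, adjusted p = 0.0121). Gpc3, Gas1 and Fbln1, also used as resting markers, were not called, with log2 fold changes of 0.11, -0.031 and 0.011. When TAC replicate 1 was left out, Cxcl14, a chemokine of fibroblasts, was another gene that fell (edgeR log2 fold change -0.76, adjusted p = 0.0162). The call of Abca8a, higher with all libraries, was then lost, and Smoc2 was called higher.

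Activated fibroblast genes changed far more. Of 23 tested, 20 rose, none fell and 3 (Fap, Wisp1 and Acta2) were not called. The median log2 fold change was 1.61. Leaving out TAC replicate 1 gave 18 that rose, and the middle value of the 23 was then that of Fstl1, 1.32. Postn, periostin, rose from 21.5 ± 3.01 to 185 ± 76.5 CPM, and Meox1, a homeobox factor of activated fibroblasts, from 23.2 ± 5.10 to 62.5 ± 14.4 CPM. Summed over the list, the level was 1870 to 2979 CPM in sham and 5398 to 13610 CPM in TAC, where the highest was TAC replicate 1 and the other 4 were at 5398 to 6534 CPM. The calls lost without it were those of Lox and Fmod. That library was also the lowest of the TAC group in Gsn, Scara5, Clec3b and Pi16 and the highest in Islr and Cdh11.

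**Figure D5:**
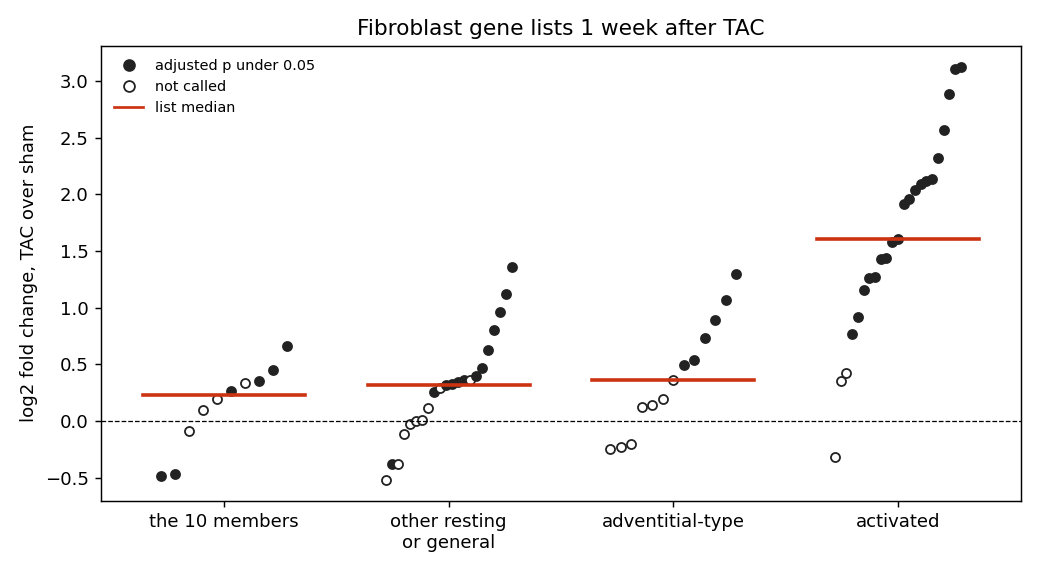
Log2 fold change, TAC over sham, of each tested gene of 4 fibroblast lists (the 10 genes described here, 22 other resting or general genes, 13 adventitial-type genes and 23 activated genes); filled points have an adjusted p under 0.05 by edgeR and red bars are list medians. Medians with all libraries kept are 0.23, 0.32, 0.36 and 1.61, and the 2 lowest filled points of the first list are Scara5 and Gsn.

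Some markers of other cell types were called too, and their part in the results was not tested. Of 12 tested macrophage markers 9 rose, with summed levels of 288 to 336 CPM in sham and 441 to 712 CPM in TAC, where the highest was TAC replicate 1 and the other 4 were at 441 to 472 CPM. Of 10 endothelial markers 4 rose (summed levels 1697 to 1972 and 1847 to 2176 CPM), and of 10 smooth muscle and pericyte markers 3 rose (1614 to 1988 and 1691 to 1924 CPM). In both lists the sums overlapped between the groups, and over all tested genes 35.8% were called, 18.8% higher. Leaving out TAC replicate 1 added 1 call to each of these lists, Tie1 and Rgs5, both higher. Of 5 tested markers of epicardial mesothelium, 1 rose, which was Wt1, while the sums overlapped (28.1 to 53.3 and 30.2 to 60.5 CPM). None of 3 adipocyte markers was called (9.33 to 23.9 and 3.12 to 35.6 CPM), none of 5 erythroid markers (276 to 1688 and 1000.1 to 2137 CPM), and of 4 nerve and glia markers 1, Kcna1, fell (13.3 to 18.2 and 9.52 to 16.3 CPM). Lymphocyte markers were too low to test (1.55 to 2.10 and 1.63 to 2.54 CPM). No marker in these lists was at 0 in all 10 libraries.

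The genes whose centred profile over the 10 libraries lay nearest were found by Euclidean distance on the log2 of CPM plus 2. They are given here only for Islr, Gsn, Scara5 and Pi16. For Islr they were Dnm1, Antxr1 and Arsb (distances 0.31, 0.33 and 0.36, beside a length of 1.28 for the profile of Islr itself), with log2 fold changes of 0.70, 0.67 and 0.82. For Gsn they were Slc38a3, Car14 and Cpeb3 (0.27, 0.30 and 0.30, beside 1.05), with log2 fold changes of -0.60, -0.56 and -0.53. For Scara5 they were Gzmm, Myh7b and Scrn2 (0.34, 0.35 and 0.35, beside 0.97), and for Pi16 Fam101b, Apba1 and Ddx60 (0.25, 0.25 and 0.28, beside 0.83). None of these 12 genes is in the fibroblast lists used here. Those lists hold only 22, 13 and 23 of the 12001 tested genes besides the 10 described here, which were not candidates. An absence from them is therefore no sign of the cells in which these genes are expressed.

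Strand was not kept in these libraries, and reads of a gene and of transcripts on the opposite strand cannot be told apart. In GENCODE M21, antisense transcripts overlap 4.55% of the exon length of Pdgfra (Gm42802), 3.49% of that of Pi16 and 0.972% of that of Ddr2, and Gm42803 overlaps a further 1.66% of Pdgfra. No overlapping gene was annotated over the exons of Tcf21, Dpt, Gsn, Scara5, Clec3b or Cdh11.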

How the data were processed

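The authors deposited raw read counts, as whole numbers and not normalized, for each Ensembl gene in 10 libraries. Per the submitters' processing notes, the sham libraries used TopHat2 2.0.10 with Bowtie2 on mm10, and for the TAC libraries TopHat 1.3.0 is named with Bowtie, and both mm9 and mm10; HTSeq is named for all; per the file headers, gene IDs are those of GRCm37. Processing and group therefore cannot be told apart. How HTSeq was set, and on which annotation, is not given in the sources used here. A row of column totals was left out. The test was that of edgeR 4.0.16, run in R 4.3.3 (quasi-likelihood F test, TMM, filterByExpr with a minimum count of 10 and a minimum total of 15, group as the only term, threshold 0.05), and SE is the log2 fold change over the square root of F. Ratios used exact permutation over 252 divisions of the libraries. The same model was tested on simulated data. Alternatives were DESeq2 1.42.0, limma-voom (limma 3.58.1), other scaling and filters, robust dispersion, replicate number as a block and leaving out each library. The chi-square per gene between libraries of a group was 2.67 to 24.8, so no library was set aside as a copy of another and all 10 were counted. This value does not bear on the sex label of TAC replicate 1, or on whether the libraries came from separate animals. No animal identifiers are given, so p-values measure the spread between these samples. Exon lengths and overlaps came from GENCODE M21 (GRCm38) by Ensembl ID. All 10 genes, the further genes of the lists with the smallest adjusted p and their relatives were named by rule. The 3 nearest profiles were found by rule for all 10 genes, but the rule did not choose the genes for which they are given. Cxcl14, genes whose call changed without TAC replicate 1, and the genes named to complete small counts, were named after their values were seen. The genes and lists were chosen with earlier results of these data known.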

Additional observations from a re-analysis of the deposited data

How the results depend on the processing

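Across the 18 alternatives, the calls of Ddr2, Pi16, Islr, Gsn and Scara5 kept their direction and their side of the threshold, with log2 fold changes of 0.29 to 0.46, 0.40 to 0.55, 0.54 to 0.77, -0.60 to -0.37 and -0.56 to -0.38. The call of Pdgfra was lost in 7 of 18, and Tcf21 and Cdh11 were called higher in 3 of 18 each. Library totals in place of TMM factors gave all genes a median log2 fold change of 0.11 in place of 0.0027: 3257 genes were then higher and 1159 lower, 73.8% of calls higher in place of 52.5%, 6 of the 10 genes rose and 2 fell, Clec3b turned to 0.012, and 4 cadherin and catenin genes rose and 0 fell. Leaving out each library in turn gave 3 to 6 genes of the 10 that rose and 2 that fell. Without TAC replicate 1, 2 other resting fibroblast genes and 1 relative of Tcf21 fell. The number of ratios to Pdgfra that differed ranged from 0 to 3 when a library was left out; it was 0 without sham replicate 1, 2, 4 or 5, where the ratios of Gsn and Scara5 had an adjusted p of 0.0714 and differences of -0.76 to -0.70. With a library left out, the difference in the ratio of Tcf21 ranged from -0.064 (without TAC replicate 3; -0.018 without TAC replicate 5) to 0.12, and that of Cdh11 from -0.16 to 0.025 (without TAC replicate 4). No pairing by replicate number was found, which does not show that the samples were unpaired. The correlation of same-numbered deviations was between -0.11 and 0.27, and 1 of the 5 pairs correlated best with its own number. With the replicate block, 3 of the 10 genes rose and 2 fell, and 0 ratios differed, in an exact sign-flip test that cannot give a p below 0.0625. Depth limits Tcf21 most, at 66 to 123 counts per library.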
